A study of Mus musculus with 23 samples.

Results

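Expression of 7 genes of cholesterol synthesis, sterol sensing and cholesterol turnover was examined in the hippocampus of 23 mice. The genes are Hmgcs1, Idi1, Fdft1, Sqle, Srebf2, Insig1 and Cyp46a1. They were chosen by symbol, and each had 1 row among the 19733 genes of the expression table. Male wild-type C57BL/6J mice entered the experiment at 6 weeks of age and were kept on liquid diets for 16 weeks, with 1 week of behavioral tests after it. The Ctrl group (n = 9) received the AIN93M control liquid diet, pair-fed to the ethanol groups, with a daily gavage of the vehicle CMC-Na (0.05%). The EtOH group (n = 7) received the ethanol version of that diet with the same vehicle. The EtOH-UA group (n = 7) received the ethanol diet and a daily gavage of 200 mg/kg urolithin A (UA), a gut microbial metabolite of ellagitannins, from the start of the diet. No group received UA on the control diet, so UA was compared only in ethanol-fed mice. RNA of the whole hippocampus was sequenced, and the values are FPKM, a count of fragments divided by transcript length and by library size. In such bulk tissue fewer cells of a type and less RNA per cell cannot be told apart.

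Brain cholesterol is made locally, because lipoproteins of the blood do not cross the blood-brain barrier. Synthesis starts from acetyl-CoA, runs through mevalonate and isoprenoid diphosphates to squalene, and ends with the closure and trimming of the sterol rings. When sterols in the endoplasmic reticulum are low, the transcription factor SREBP2 is released by cleavage and raises transcription of the synthesis genes, and when they are high, INSIG proteins hold SREBP2 and its escort SCAP back. Neurons remove cholesterol by side-chain hydroxylation, which gives an oxysterol that can leave the brain.

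The promoters are shown because 4 of the genes are classical members of this sterol circuit and because the levels of several of the 7 genes varied together between mice. The RefSeq promoter table for GRCm38.p6, the assembly also called mm10, held 5 of the 7 genes, and Fdft1 and Sqle had no entry. Fdft1 or Sqle is in each pair that passed in the correlations below, except Srebf2 with Cyp46a1. Whether the promoter letters go with the variation between mice was not tested. The sequences of Hmgcs1, Idi1, Srebf2 and Insig1 are the 250 bases before the start of the gene. That of Cyp46a1 was cut to the 202 bases before the start RefSeq gives for the gene, because the table sets its promoter by a start farther downstream. All are printed 5′ to 3′ on the plus strand of the genome, which is the strand of all 5 genes. Capitals mark matches, on either strand, to the sterol regulatory element TCACNCCAC, to the E box CACGTG, and to the box named CCAAT, which reads ATTGG when it lies on the minus strand. Hmgcs1 lies at chr13:119690101-119690350, Idi1 at chr13:8885356-8885605, Srebf2 at chr15:82147019-82147268, Insig1 at chr5:28071162-28071411 and Cyp46a1 at chr12:108334066-108334267.
Hmgcs1: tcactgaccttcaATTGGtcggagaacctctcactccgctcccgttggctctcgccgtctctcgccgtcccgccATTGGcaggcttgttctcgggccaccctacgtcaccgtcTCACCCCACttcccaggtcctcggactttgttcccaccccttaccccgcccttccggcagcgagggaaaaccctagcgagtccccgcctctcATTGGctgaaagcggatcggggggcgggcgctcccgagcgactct
Idi1: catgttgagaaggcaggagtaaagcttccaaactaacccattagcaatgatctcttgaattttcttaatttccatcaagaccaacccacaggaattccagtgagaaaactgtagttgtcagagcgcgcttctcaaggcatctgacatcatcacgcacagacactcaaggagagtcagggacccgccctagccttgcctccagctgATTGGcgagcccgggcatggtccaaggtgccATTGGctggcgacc
Srebf2: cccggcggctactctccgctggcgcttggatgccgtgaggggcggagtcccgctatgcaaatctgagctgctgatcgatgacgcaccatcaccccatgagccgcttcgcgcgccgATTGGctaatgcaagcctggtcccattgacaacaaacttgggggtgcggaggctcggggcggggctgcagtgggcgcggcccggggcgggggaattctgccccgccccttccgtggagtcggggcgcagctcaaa
Insig1: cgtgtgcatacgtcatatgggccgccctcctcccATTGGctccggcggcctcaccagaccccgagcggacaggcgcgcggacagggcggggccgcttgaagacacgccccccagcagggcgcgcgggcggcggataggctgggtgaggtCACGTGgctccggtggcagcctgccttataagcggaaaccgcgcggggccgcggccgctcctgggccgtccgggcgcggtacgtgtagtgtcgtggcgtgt
Cyp46a1: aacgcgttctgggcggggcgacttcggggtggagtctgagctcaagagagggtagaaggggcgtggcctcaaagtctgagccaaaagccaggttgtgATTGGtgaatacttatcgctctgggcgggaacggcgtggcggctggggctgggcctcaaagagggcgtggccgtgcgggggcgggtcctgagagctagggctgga
The Hmgcs1 promoter held the sterol element TCACCCCAC, which began 137 bases before the start, and 3 CCAAT boxes. The sterol element was found in 1.05% of the 32851 promoters of the table cut to 250 bases, and the shares given for the other motifs are over the same windows. The Idi1 promoter held 2 CCAAT boxes, and those of Srebf2, Insig1 and Cyp46a1 held 1 each, against at least 1 in 33.8% of all promoters. Insig1 alone among the 5 held the E box, 101 bases before its start, and 6.02% of all promoters held it. The GC box GGGCGG, not capitalized, occurred in all 5 and in 32.7% of all promoters. It had 4 matches in Srebf2, 3 each in Insig1 and Cyp46a1, 2 in Hmgcs1 and 1 in Idi1. No capitalized matches overlapped. A match describes the letters only, and the absence of one says only that these letters are not in this window.

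The libraries were not equal in one respect that touched the 7 genes. Summed FPKM over all genes ranged from 327896 to 404609, and in 6 mice it was above 350000 (3 Ctrl, 1 EtOH and 2 EtOH-UA mice). Short transcripts were relatively more abundant in the mice with high sums, which was measured as the slope, in each mouse, of a gene's deviation from its mean on log2 transcript length. The slope was between -0.181 and -0.0430 in the 6 mice with high sums, and between -0.00686 and 0.0638 in the other 17. The EtOH-UA mouse with the highest sum had 2 markers of CA1 neurons far below all other mice, Fibcd1 at 3.62 FPKM (16.2 to 34.2 in the others) and Spink8 at 5.49 FPKM (14.3 to 32.8 in the others), and the highest level of the choroid plexus marker Ttr, 7705 FPKM. All 6 markers of hippocampal excitatory neurons were above 0 in all mice. In 42 genes of low level that had 1 annotated transcript, 1 FPKM corresponded to a median of 16.5 fragments per kilobase (quartiles 15.7 and 17.0). At that depth the mean level of Idi1 was about 95.6 fragments per kilobase, for which counting error alone gives a coefficient of variation of 10.2% on a transcript of 1 kilobase. The longest annotated Idi1 transcript has 3027 bases, and on a transcript of that length the counting error would be smaller.

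All 7 genes were well expressed, and their order was nearly fixed. Hmgcs1, which encodes the cytosolic HMG-CoA synthase at the entry to the pathway, had the highest level, 73.2 ± 7.21 FPKM (SD, n = 23). Cyp46a1, which encodes the neuronal cholesterol hydroxylase of the turnover pathway, followed at 56.2 ± 6.80 FPKM. Srebf2, the gene of SREBP2, was at 36.8 ± 2.17 FPKM. Fdft1, the gene of squalene synthase, was at 25.6 ± 2.73 FPKM, and Insig1, the gene of an anchor protein that holds SREBP2 in the endoplasmic reticulum, was at 24.4 ± 1.96 FPKM. Sqle, the gene of squalene epoxidase, which acts on the product of Fdft1, was at 20.8 ± 2.01 FPKM. Idi1, the gene of the isomerase that interconverts the isoprenoid building blocks, was lowest at 5.78 ± 0.794 FPKM. Between neighbors in this order, 23 of 23 mice had the same order except for Fdft1 and Insig1, whose level was higher for Fdft1 in 12 of 23 mice. FPKM are per length, so these comparisons between genes are comparisons of levels per length of transcript. Hmgcs1 exceeded Idi1 by a median of 12.6-fold (9.41 to 16.5 over the mice). Among all 19733 genes the 7 stood between percentile 54.6 (Idi1) and 95.4 (Hmgcs1).

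The genes differed in how much they varied between mice of a group. The SD within groups of log2(FPKM + 0.1) was smallest for Srebf2 (0.083) and largest for Idi1 (0.21) and Cyp46a1 (0.18). Among the 3396 genes whose mean was 0.5 to 2 times that of Srebf2, 14.4% had a smaller SD. For Cyp46a1 and Idi1 73.4% and 68.0% of the genes of like level had a smaller SD, and for Insig1 34.2%. Hmgcs1 and Sqle lay near the middle of genes of like level, with 50.2% and 52.9% below them.

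**Figure D1:**
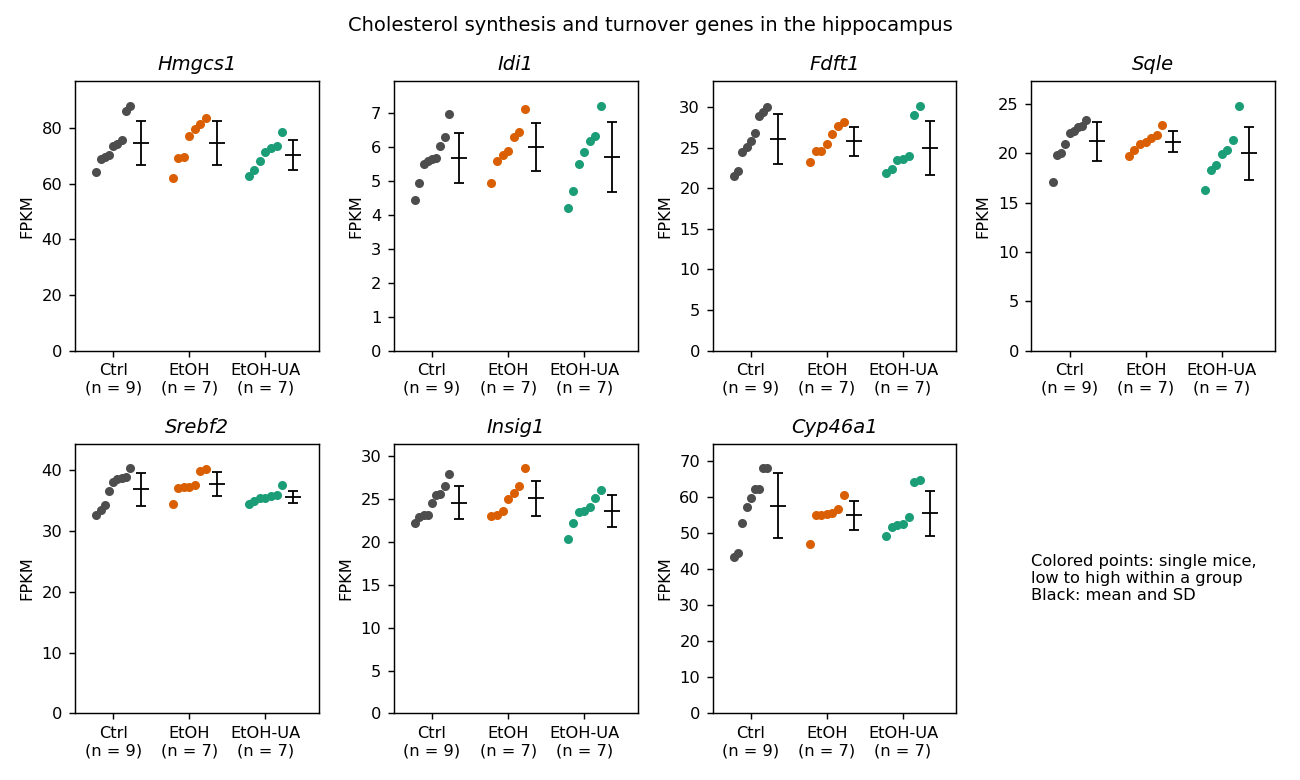
FPKM (vertical axes, from 0) of the 7 genes in single mice of the Ctrl, EtOH and EtOH-UA groups, ordered from low to high within a group, with the mean and SD in black. The groups overlapped for every gene, and the 2 EtOH-UA mice with the highest Fdft1, at 29.0 and 30.2 FPKM, stood apart from the other 5 at 21.9 to 23.9 FPKM.

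Ethanol feeding was first compared with the control diet. The synthesis enzymes were at nearly the same mean level in both groups, and 0 of the 7 genes differed in limma at an adjusted p under 0.05, the threshold used throughout. The share of all 15985 tested genes past that threshold was 0%, and at an unadjusted p under 0.05 it was 3.05% (487 genes), which none of the 7 reached. Hmgcs1 ranged from 64.3 to 88.0 FPKM in Ctrl mice (median 73.6) and from 61.9 to 83.6 FPKM in EtOH mice (median 77.0). The means were 74.5 ± 7.87 (SD, n = 9) and 74.6 ± 7.95 FPKM (SD, n = 7), and the log2 fold change was 0.0022 (standard error 0.070, 95% interval -0.14 to 0.15). Sqle was at 17.1 to 23.4 FPKM in Ctrl mice (median 22.02) and at 19.7 to 22.9 FPKM in EtOH mice (median 21.1), with a log2 fold change of 0.0032 (standard error 0.070). The EtOH mice lay inside the range of the Ctrl mice for Sqle. Fdft1 was at 21.5 to 30.0 FPKM in Ctrl mice (median 25.8) and at 23.2 to 28.2 FPKM in EtOH mice (median 25.4), a log2 fold change of -0.0079 (standard error 0.076). The estimate was largest for Idi1, which was at 5.68 ± 0.726 FPKM in Ctrl and 6.001 ± 0.699 FPKM in EtOH mice (log2 fold change 0.081, 95% interval -0.13 to 0.29). Of the 7 intervals the widest limits were -0.23 (Cyp46a1) and 0.29 (Idi1), which correspond to a change of -15.0% and of 22.1%. Exact two-sided permutation tests over 11440 splits of the mice gave p between 0.378 (Idi1) and 0.977 (Hmgcs1).

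Srebf2 and Insig1, the sensing genes, did not pass the test between EtOH and Ctrl mice. Srebf2 was at 36.9 ± 2.74 FPKM in Ctrl and 37.7 ± 1.95 FPKM in EtOH mice (log2 fold change 0.034, standard error 0.045, exact permutation p = 0.489), and Insig1 was at 24.6 ± 1.92 and 25.1 ± 2.05 FPKM (log2 fold change 0.028, standard error 0.058). Without the 6 mice with high summed FPKM the log2 fold change was 0.00040 for Srebf2 and 0.053 for Insig1. Cyp46a1 spread over 43.6 to 68.1 FPKM in Ctrl mice (median 59.9) and over 47.0 to 60.6 FPKM in EtOH mice (median 55.4). The difference was -0.054 on the log2 scale (standard error 0.088), and the exact permutation p was 0.587. The 2 lowest Ctrl mice, at 43.6 and 44.7 FPKM, lay below every EtOH mouse, and 4 Ctrl mice, at 62.2 to 68.1 FPKM, lay above every EtOH mouse. Without the 6 mice with high summed FPKM the log2 fold change of Cyp46a1 was 0.026, of the opposite sign.

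UA was compared with vehicle in ethanol-fed mice. The means of Hmgcs1, Idi1, Fdft1, Sqle, Srebf2 and Insig1 were lower with UA, by 0.055 to 0.094 on the log2 scale, and that of Cyp46a1 was higher by 0.010. Leaving out single mice moved the log2 fold change of Idi1 between -0.014 (without the EtOH-UA mouse at 4.20 FPKM) and -0.14 (without the EtOH-UA mouse at 7.22 FPKM). Without the first of these mice, which also had the lowest Fdft1 and Sqle of the EtOH-UA group, the values were -0.026 for Fdft1 and -0.047 for Sqle, and without the EtOH-UA mouse with the highest sum they were -0.10 and -0.15. For Hmgcs1 single mice gave -0.13 (without the EtOH mouse at 61.9 FPKM) to -0.054 (without that at 83.6 FPKM), and for Insig1 -0.11 to -0.055 (without the EtOH-UA mouse at 20.35 FPKM). None of the 7 passed in limma (adjusted p 0.9003 to 0.986, limma over all genes), where 0% of all genes passed, and none reached an unadjusted p under 0.05 in limma, as 3.27% of all genes did (523 of 15985). Sqle was at 19.7, 20.3, 20.97, 21.1, 21.5, 21.9 and 22.9 FPKM in the EtOH mice and at 16.3, 18.3, 18.8, 19.9, 20.3, 21.4 and 24.9 FPKM in the EtOH-UA mice. The lowest 3 and the highest 1 of these 14 mice were EtOH-UA mice. The log2 fold change of Sqle was -0.094 (standard error 0.074, 95% interval -0.25 to 0.060). Hmgcs1 was at 74.6 ± 7.95 FPKM in EtOH and 70.3 ± 5.46 FPKM in EtOH-UA mice (log2 fold change -0.083, 95% interval -0.24 to 0.070), and 1 of 7 EtOH-UA mice exceeded the EtOH median. Fdft1 was at 25.8 ± 1.81 and 24.9 ± 3.29 FPKM (log2 fold change -0.055, 95% interval -0.22 to 0.11). Idi1 was at 6.001 ± 0.699 and 5.71 ± 1.02 FPKM (log2 fold change -0.083, 95% interval -0.30 to 0.14). Insig1 was at 25.1 ± 2.05 and 23.6 ± 1.87 FPKM (log2 fold change -0.090, 95% interval -0.22 to 0.037). Cyp46a1 was at 55.0 ± 4.04 and 55.6 ± 6.25 FPKM (log2 fold change 0.010, 95% interval -0.18 to 0.20).

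Srebf2 had a coefficient of variation of 2.77% in the EtOH-UA mice, the smallest among the 7 genes and 3 groups. Its values were 34.4, 35.0, 35.4, 35.5, 35.7, 35.9 and 37.6 FPKM in EtOH-UA mice, and 34.5, 37.1, 37.3, 37.3, 37.5, 39.9 and 40.3 FPKM in EtOH mice. Of the 7 EtOH-UA mice 6 were below the second lowest EtOH mouse, and the lowest EtOH mouse lay among them. The log2 fold change was -0.080 (standard error 0.048, 95% interval -0.18 to 0.019). The exact two-sided permutation p over 3432 splits was 0.0256 and the unadjusted p in limma, whose spread includes the Ctrl mice, was 0.110. This was 1 of 21 such tests of the 7 genes that gave a p under 0.05, and no correction was applied to it. Leaving out each of the 14 mice in turn gave exact permutation p between 0.0035 and 0.0559, under 0.05 in 11 of 14 cases, and it was 0.0530, 0.0536 and 0.0559 without the EtOH mouse at 39.9 FPKM, the EtOH mouse at 40.3 FPKM and the EtOH-UA mouse at 34.4 FPKM. It was 0.0644 without the 2 EtOH-UA mice with the highest summed FPKM.

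These 2 EtOH-UA mice weighed on the estimates for Fdft1 and Sqle. Fdft1 was at 29.0 and 30.2 FPKM in them and at 21.9 to 23.9 FPKM in the other 5 EtOH-UA mice, and Sqle was at 21.4 and 24.9 FPKM against 16.3 to 20.3 FPKM. Without the 2 mice the log2 fold change with UA was -0.18 for Sqle (unadjusted p = 0.0146 in limma) and -0.16 for Fdft1 (unadjusted p = 0.0436 in limma), with an adjusted p of 0.999 for both in limma over all genes. Both mice had the highest Fdft1 and Sqle of their group, so leaving them out had to lower its mean. The EtOH mouse with a high sum stayed in that fit. With the length slope of each mouse as a covariate the values were -0.16 for Sqle (unadjusted p = 0.00901 in limma) and -0.14 for Fdft1 (unadjusted p = 0.0119 in limma), and without all 6 mice with high sums they were -0.17 and -0.14. For Hmgcs1 the value was -0.13 without the 2 mice and -0.17 without the 6 (unadjusted p = 0.0403 in limma). The adjusted p of the 7 genes was above 0.99 in all 3 of these fits. In a fit without the 6 mice the values also moved by more than 1.5 times for Idi1, to -0.15. The part of library composition in these differences was not tested.

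Between EtOH-UA and Ctrl mice, which differed in both ethanol and UA, 0 of the 7 genes passed the threshold in limma and 0% of all genes did. None of the 7 was among the 3.08% of genes (492) with an unadjusted p under 0.05. The estimates were between -0.090 (Sqle) and -0.0020 (Idi1) on the log2 scale, and exact permutation p were between 0.254 (Hmgcs1) and 0.985 (Idi1). All 7 EtOH-UA mice were below the Ctrl median of Srebf2, 38.1 FPKM, while 3 of the 9 Ctrl mice, at 32.7, 33.5 and 34.3 FPKM, were lower than every EtOH-UA mouse. Without the 2 EtOH-UA mice with high sums the log2 fold change was -0.18 for Sqle (unadjusted p = 0.0121 in limma) and -0.17 for Fdft1 (unadjusted p = 0.0275 in limma), each with an adjusted p of 0.734 in limma. These 2 mice had the highest Fdft1 and Sqle of their group, so leaving them out had to lower its mean. The 3 Ctrl mice with high sums stayed in that fit. Without all 6 mice with high sums the log2 fold change was -0.13 for Sqle and -0.095 for Fdft1. This comparison shares its EtOH-UA mice with the comparison above.

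**Figure D2:**
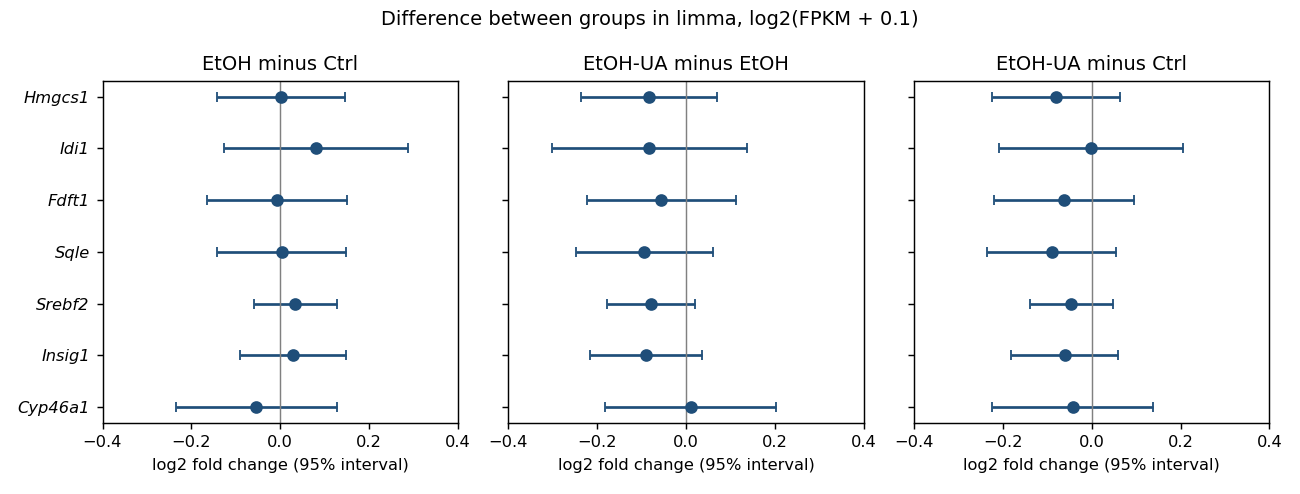
Log2 fold change (horizontal axes) of the 7 genes in limma on log2(FPKM + 0.1) for EtOH minus Ctrl, EtOH-UA minus EtOH and EtOH-UA minus Ctrl mice, with bars for the 95% interval. All 21 intervals include 0 and lie between -0.30 and 0.29.

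Beyond the 7 genes, 6 lists of the pathway with 60 genes in all were examined, and 0 of the 60 passed at an adjusted p under 0.05 in any of the 3 comparisons. The list of sterol synthesis enzymes had 20 genes, among them Hmgcs1, Idi1, Fdft1 and Sqle. Their mean levels ran from 4.88 FPKM for Hsd17b7, a reductase of the late pathway, to 73.2 FPKM for Hmgcs1, with a median of 14.6 FPKM. The level alternated along the early pathway, with Mvd and Idi1 at 5.92 and 5.78 FPKM between Pmvk at 20.5 FPKM and Fdps, the farnesyl diphosphate synthase, at 29.4 FPKM. Between EtOH and Ctrl mice, 9 of the 20 enzymes were higher and 11 lower, with a median log2 fold change of -0.0080 (-0.0030 over all genes tested), and none had an unadjusted p under 0.05. Without the 6 mice with high sums 5 were lower (median 0.038), and with the length slope as a covariate 7 (median 0.012).

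Between EtOH-UA and EtOH mice, 15 of the 20 enzymes were lower in EtOH-UA mice and 5 higher, with a median log2 fold change of -0.083, where all genes had a median of 0.0033 and 48.8% were lower. The 5 that were higher were Pmvk, Fdps, Tm7sf2, Msmo1 and Ebp. Of the 20, 1 reached an unadjusted p under 0.05, against 3.27% of all genes, and it was higher. It was Tm7sf2, the gene of a sterol reductase that acts on the double bond left by Cyp51, at 6.67 ± 0.598 FPKM in EtOH and 7.86 ± 0.332 FPKM in EtOH-UA mice (log2 fold change 0.24, standard error 0.082, exact permutation p = 0.00291). Without the 2 EtOH-UA mice with high sums 19 of the 20 enzymes were lower, all but Tm7sf2, with a median of -0.11, and 5 of 20 were lower at an unadjusted p under 0.05, as 1.21% of all genes were. Without the 6 mice with high sums 19 were lower and 5 were lower at an unadjusted p under 0.05 (1.53% of all genes). With the length slope as a covariate these numbers were 19 and 6 (1.72% of all genes), and with array quality weights 18 and 9 (2.99% of all genes). In all 4 of these fits 0 of the 20 passed the threshold (lowest adjusted p 0.747). The 2 other scalings stayed near the main fit. With quantile normalization 15 were lower and 0 were lower at an unadjusted p under 0.05 in limma. With upper-quartile scaling 15 were lower and 1 was lower at that p. In these 2 scalings 3.52% and 3.33% of all genes were past that p in either direction. Leaving out each of the 23 mice in turn gave 14 to 17 lower enzymes. The enzymes varied together between mice of a group, as described below, so their number does not count independent observations.

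Between EtOH-UA and Ctrl mice 16 of the 20 enzymes were lower, with a median log2 fold change of -0.075 (0.0024 over all genes). 3 genes were lower at an unadjusted p under 0.05 (3.08% of all genes were past it in either direction). Among them Nsdhl, a demethylation enzyme, was at 9.57 ± 0.621 FPKM in Ctrl and 8.72 ± 0.922 FPKM in EtOH-UA mice (log2 fold change -0.14, standard error 0.060, exact permutation p = 0.0421). Dhcr7, the last reductase of one branch of the pathway, was also among them. Without the 2 EtOH-UA mice with high sums 19 of the 20 were lower (median -0.14) and 7 were lower at an unadjusted p under 0.05, as 3.18% of all genes were. With the length slope 17 were lower and 6 were past that p (2.95% of all genes), with array quality weights 19 and 8 (3.43%), and without the 6 mice 19 and 4 (1.53%). The threshold was passed by 0 of the 20 in these fits. With quantile normalization and with upper-quartile scaling 16 were lower and 3 were lower at an unadjusted p under 0.05 in limma, as in the main fit. In these 2 scalings 3.49% and 2.98% of all genes were past that p in either direction.

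**Figure D3:**
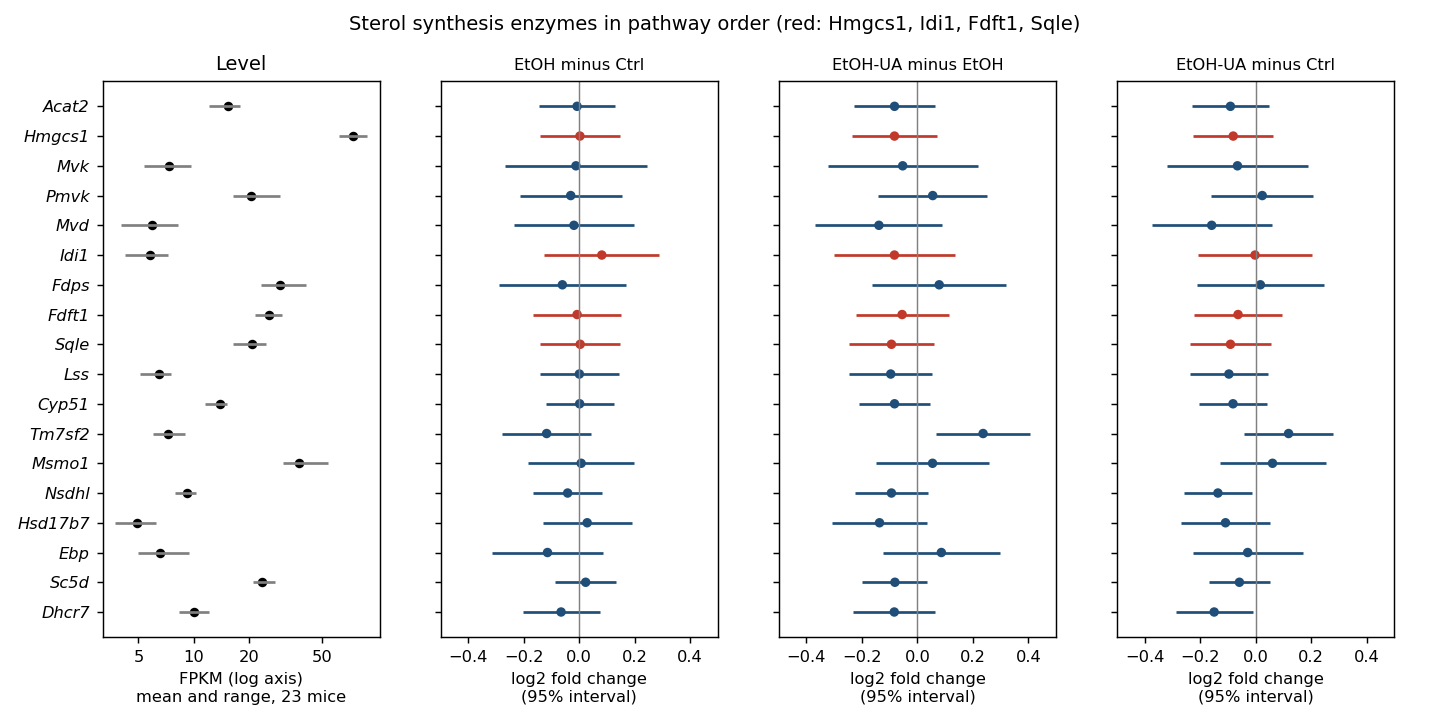
18 of the 20 sterol synthesis enzymes from top to bottom in pathway order, with the mean and range of FPKM over 23 mice on a log axis at left and log2 fold changes with 95% intervals for the 3 comparisons (Hmgcs1, Idi1, Fdft1 and Sqle in red). Between EtOH-UA and EtOH mice 13 of the 18 points lie left of 0, and the interval of Tm7sf2 lies right of it.

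The other lists showed small differences. Of 7 sterol sensing genes 5 were lower in EtOH-UA than in EtOH mice (median log2 fold change -0.020, and 0.0073 without the 6 mice with high sums), and Insig2, the paralog of Insig1, was at 19.8 ± 1.13 FPKM in EtOH and 20.9 ± 2.02 FPKM in EtOH-UA mice (log2 fold change 0.080, exact permutation p = 0.215). Of 10 genes of cholesterol uptake and trafficking 7 were lower (median -0.083), but 3 without the 2 EtOH-UA mice with high sums (median 0.011), 5 without the 6 mice (median -0.014) and 5 with the length slope (median -0.0042). Among them Stard4, a sterol carrier gene, was at 5.82 ± 0.782 and 5.28 ± 0.620 FPKM (log2 fold change -0.13, exact permutation p = 0.209). Of 7 genes of oxysterol and turnover enzymes 1 was lower (median 0.036). That was Soat1, which encodes a cholesterol esterifying enzyme, at 5.72 ± 0.773 and 5.24 ± 0.713 FPKM (log2 fold change -0.13, exact permutation p = 0.246). Of 8 lipoprotein and efflux genes 2 were lower (median 0.086). The median was 0.0017 without the 2 mice, 0.017 without the 6 mice and 0.0019 with the length slope. Lcat, which esterifies cholesterol on lipoproteins, was at 10.7 ± 0.993 and 12.4 ± 2.66 FPKM (log2 fold change 0.19, exact permutation p = 0.151). Of 8 fatty acid synthesis enzymes 7 were lower (median -0.070), and 6 without the 2 mice (median -0.033). Acaca, the gene of acetyl-CoA carboxylase, was at 11.5 ± 0.4495 and 10.4 ± 1.12 FPKM (log2 fold change -0.16, standard error 0.065, exact permutation p = 0.0163) and was the one gene of this list with an unadjusted p under 0.05 in limma. Its adjusted p in limma was 0.9003. Without the 2 mice, and without the 6, 0 genes of this list had an unadjusted p under 0.05 in limma, and with the length slope 1 had.

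Between EtOH and Ctrl mice none of these lists had a gene with an unadjusted p under 0.05 in limma. Scd1, a fatty acid desaturase gene, was at 35.9 ± 4.18 FPKM in Ctrl and 39.7 ± 2.78 FPKM in EtOH mice (log2 fold change 0.15, exact permutation p = 0.0609). Abca1, the gene of a cholesterol exporter, was at 5.59 ± 0.824 and 6.27 ± 0.776 FPKM (log2 fold change 0.17, exact permutation p = 0.111). The uptake and trafficking list had 9 of 10 genes higher in EtOH mice (median 0.064), where 7765 of all 15985 genes were higher. Among the 10, Lrp8, a lipoprotein and reelin receptor gene, was at 15.3 ± 1.23 and 16.6 ± 1.70 FPKM (log2 fold change 0.12, exact permutation p = 0.102). Between EtOH-UA and Ctrl mice Lipa, the gene of the lysosomal lipase that frees cholesterol from its esters, was at 6.46 ± 0.511 FPKM in Ctrl and 7.18 ± 0.617 FPKM in EtOH-UA mice (log2 fold change 0.15, exact permutation p = 0.0184). Of the 8 lipoprotein and efflux genes 5 were higher in EtOH-UA mice (median 0.060). Among the 8, Abcg4, the gene of a neuronal and glial cholesterol exporter, was at 17.4 ± 1.31 and 15.8 ± 1.99 FPKM (log2 fold change -0.15, exact permutation p = 0.0636). Lcat was at 10.6 ± 0.888 and 12.4 ± 2.66 FPKM (log2 fold change 0.20, exact permutation p = 0.0823). The adjusted p in limma was 0.999 for Lipa, Abcg4 and Lcat.

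Within groups the 7 genes varied together to unequal degrees. Correlations were taken over the 23 mice on deviations of log2(FPKM + 0.1) from the group means, with 100000 shuffles of the mice within groups, and adjusted over the 21 pairs. Of the 21 pairs 20 had a positive r and 4 passed at an adjusted p under 0.05. The closest pair was Fdft1 and Sqle, whose products act in succession on squalene (Pearson's r = 0.865, permutation p = 1e-05, the smallest the shuffles can give, adjusted p = 0.00021, Spearman's rho = 0.829, permutation p = 3e-05). Their r was 0.862 (Ctrl), 0.811 (EtOH) and 0.897 (EtOH-UA), 0.832 without the 2 mice farthest from the median of Fdft1, and 0.798 in the 17 mice with lower sums. Hmgcs1 and Sqle followed (r = 0.641, permutation p = 0.00044, adjusted p = 0.00462, rho = 0.667, permutation p = 0.00079). Within groups their r was 0.781 (Ctrl), 0.182 (EtOH) and 0.904 (EtOH-UA), and the difference between the groups was not tested. It was 0.728 without the 2 mice farthest from the median of Hmgcs1 and 0.783 in the 17 mice with lower sums.

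Cyp46a1 varied with Fdft1 and with Srebf2. For Fdft1 and Cyp46a1 r was 0.618 (permutation p = 0.0049, adjusted p = 0.0343, rho = 0.634, permutation p = 0.00364), and 0.702 without the 2 farthest mice. Within groups their r was 0.824 (Ctrl), 0.441 (EtOH) and 0.339 (EtOH-UA), and the difference between the groups was not tested. In the 17 mice with lower sums r was as large as in all 23, 0.618, and no longer passed over the 21 pairs (adjusted permutation p = 0.102). For Srebf2 and Cyp46a1 r was 0.606 (permutation p = 0.00887, adjusted p = 0.0466, rho = 0.583, permutation p = 0.00639). It was 0.614, 0.662 and 0.664 in the Ctrl, EtOH and EtOH-UA mice, 0.715 without the 2 farthest mice, and 0.852 (adjusted p = 0.00595) in the 17 mice with lower sums. Srebf2 and Hmgcs1, a transcription factor gene and a classical target of its product, had an r of -0.105 (permutation p = 0.67, rho = -0.0791, permutation p = 0.733), and 0.0692 in the 17 mice. With quantile normalization 1 of the 21 pairs passed, Fdft1 and Sqle (r = 0.798), while r was 0.435 for Hmgcs1 and Sqle, 0.401 for Fdft1 and Cyp46a1 and 0.523 for Srebf2 and Cyp46a1. Without the mouse with the highest sum Sqle and Cyp46a1 also passed (r = 0.656, against 0.488 in all mice).

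High correlations were common in these data. Among all 83250156 pairs of the 12904 genes that averaged 1 FPKM or more, 0.656% had an r at or above that of Fdft1 and Sqle. The share was 6.46% for Hmgcs1 and Sqle, 7.39% for Fdft1 and Cyp46a1, and 7.87% for Srebf2 and Cyp46a1. The median r over all pairs was 0.0067, over the 21 pairs of the 7 genes 0.305, and over the 190 pairs of the 20 sterol synthesis enzymes 0.303 (150 of 190 above 0). In the 17 mice with lower sums the median over the 20 enzymes was 0.261.

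**Figure D4:**
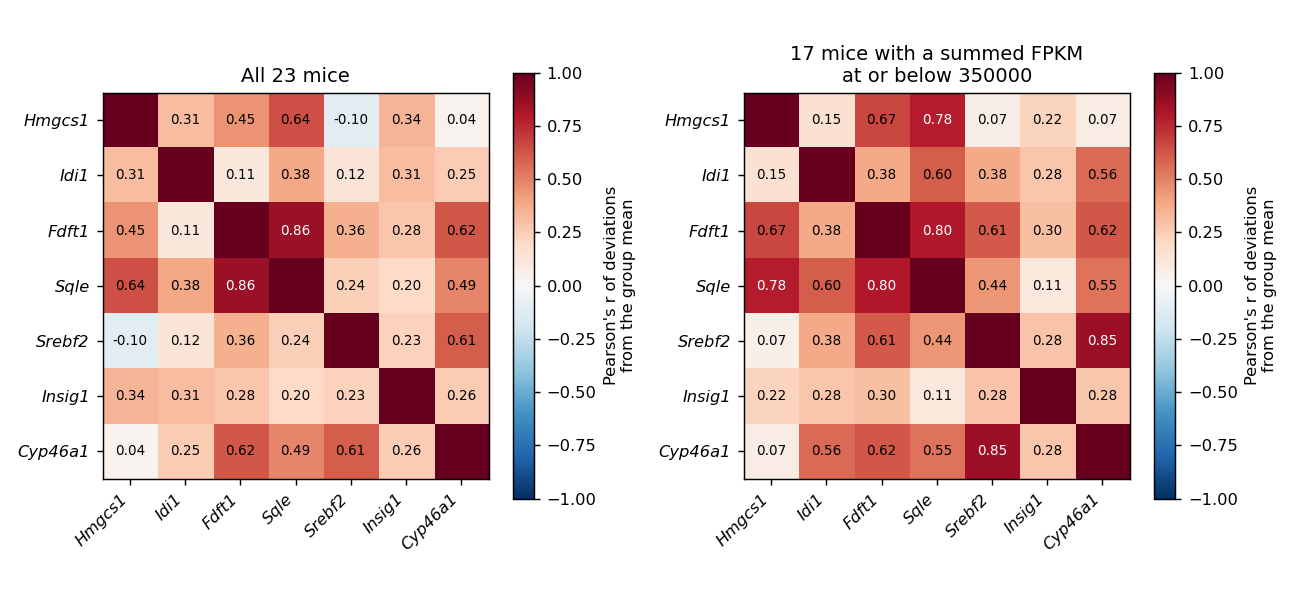
Pearson's r of deviations from the group means for each pair of the 7 genes, in all 23 mice at left and in the 17 mice with a summed FPKM at or below 350000 at right (color from -1 to 1, r printed in each cell). Fdft1 and Sqle are at 0.86 and 0.80, and Srebf2 and Cyp46a1 at 0.61 and 0.85.

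The genes most like the mean of Hmgcs1, Idi1, Fdft1, Sqle and Insig1 over the 23 mice were ranked among 12899 genes that averaged 1 FPKM or more. The likeness is Pearson's r of deviations from group means and is given as a description. The highest was Cd200 (r = 0.843), a gene of a neuronal surface protein, and then Fggy (0.790), Coil (0.776), Pdlim4 (0.760), Stard4 (0.759), Cbln4 (0.753), H13 (0.752), A2ml1 (0.749), Pkib (0.746) and Hmgb3 (0.745). Stard4 was the only one of these 10 on the pathway lists, and its r was 0.837 in the 17 mice with lower sums. Among the other 16 synthesis enzymes Acat2 ranked at 20 (r = 0.722), Cyp51 at 26 (r = 0.715) and Msmo1 at 28 (r = 0.711). Lss, which encodes the enzyme that closes the sterol rings from the product of Sqle, was at rank 9628 (r = -0.226).

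Markers of cell types were set beside the 7 genes by the mean deviation of 10 marker lists in each mouse, with 70 pairs of a list and a gene. The score of hippocampal excitatory neurons (Prox1, Wfs1, Neurod6, Zbtb20, Fibcd1 and Spink8) fell as Sqle rose (r = -0.866, permutation p = 1e-05, adjusted p = 0.0007, rho = -0.895, permutation p = 1e-05) and as Fdft1 rose (r = -0.796, permutation p = 5e-05, adjusted p = 0.00175, rho = -0.750, permutation p = 0.00042). Without the 2 mice farthest from the median score r was -0.811 and -0.736. The score is a mean, and its markers did not always move together. In the Ctrl mouse with Sqle at 23.43 FPKM, Prox1 was the lowest of all mice (5.66 FPKM) and Fibcd1 the highest (34.25 FPKM). In the EtOH-UA mouse with Sqle at 24.85 FPKM, Fibcd1 was the lowest (3.62 FPKM) and Prox1 was at 17.17 FPKM. No other of the 70 pairs passed, and the next was Fdft1 with the microglia score (r = 0.578, permutation p = 0.00482, adjusted p = 0.105, rho = 0.533). For Hmgcs1 and the excitatory score r was -0.5085 (permutation p = 0.00771, adjusted p = 0.105, rho = -0.547). The neuron score ran between -0.170 and 0.300 in r over the 7 genes and the astrocyte score between -0.267 and 0.306. Summed FPKM of the 6 excitatory markers ranged over the Ctrl mice from 178 to 222, over the EtOH mice from 180 to 210 and over the EtOH-UA mice from 163 to 221. Zbtb20 varied most of them, from 0.440 to 7.20 FPKM, and was below 1 FPKM in all 6 mice with high sums. Without Zbtb20 the r of the score was -0.716 with Sqle and -0.585 with Fdft1, and 0 of the 70 pairs passed when this score took the place of the full list. Adjusted instead over 21 pairs, those of this score, the summed FPKM and the length slope with the 7 genes, it passed for Sqle (permutation p = 0.00112, adjusted p = 0.00470), Fdft1 (permutation p = 0.00711, adjusted p = 0.0213) and Hmgcs1 (r = -0.468, permutation p = 0.00689, adjusted p = 0.0213). On ranks the adjusted permutation p over these pairs was 0.0277 for Sqle and 0.0638 for both Fdft1 and Hmgcs1, so only Sqle passed. Without the 2 farthest mice r fell to -0.475 (Sqle), -0.401 (Fdft1) and -0.367 (Hmgcs1). In the 17 mice with lower sums r with the full list was -0.7625 for Hmgcs1, -0.759 for Sqle and -0.593 for Fdft1. The neuron score had an r of 0.648 with Fdft1 in those mice (permutation p = 0.00285, adjusted p = 0.0726). There 0 of 70 pairs passed. Without Zbtb20 the adjusted permutation p in those mice was 0.218 for both Sqle and Fdft1 over the 21 pairs, and 0.243 for Hmgcs1.

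Fdft1 and Sqle also went with the summed FPKM of the library. Fdft1 was at 26.8 to 30.2 FPKM in the 6 mice with sums above 350000 (median 29.0) and at 21.5 to 29.4 FPKM in the other 17 (median 24.5). Sqle was at 21.4 to 24.9 FPKM in the 6 mice and at 16.3 to 23.4 FPKM in the 17. Over the 23 mice r with log2 summed FPKM, on deviations from group means, was 0.810 for Fdft1 (permutation p = 4e-05, adjusted p = 0.000525 over 21 pairs, rho = 0.757, permutation p = 0.00044) and 0.724 for Sqle (permutation p = 0.00012, adjusted p = 0.00084, rho = 0.655, permutation p = 0.00126). It was 0.776 and 0.626 without the 2 farthest mice. In the 17 mice with lower sums r was 0.497 (permutation p = 0.0866) and 0.466 (permutation p = 0.0606), and 0.0115 and 0.150 when the 2 farthest of those mice were left out, so these values rest on those mice. The range of the sum was narrow there, from 327896 to 346742. For Insig1 and Idi1 r was 0.0287 and -0.0365 over the 23 mice, and for Srebf2 0.162. In the 17 mice Srebf2 had an r of 0.577 with the sum (permutation p = 0.0378, adjusted p = 0.218 over 21 pairs) and of -0.673 with the length slope (permutation p = 0.00989, adjusted p = 0.208). The part of library composition in the variation of Fdft1 and Sqle was not tested further. Both genes varied together in the 17 mice too (r = 0.798).

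**Figure D5:**
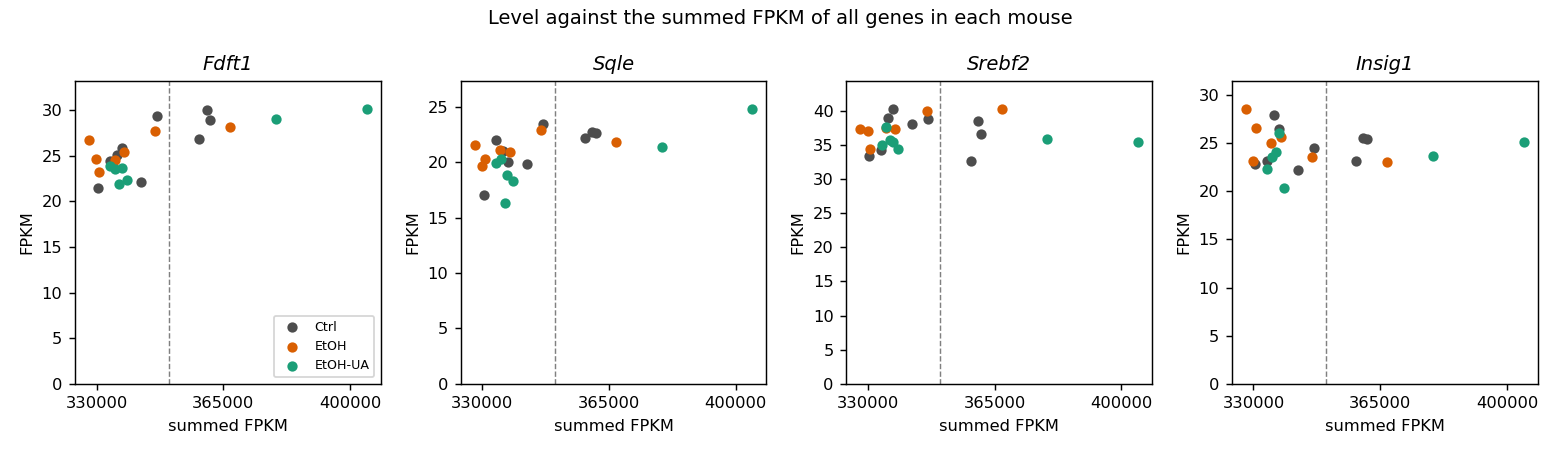
FPKM of Fdft1, Sqle, Srebf2 and Insig1 (vertical axes, from 0) against the summed FPKM of all genes, each point 1 mouse colored by group, with a dashed line at 350000. To the right of the line Fdft1 lies between 26.8 and 30.2 FPKM, while Srebf2 and Insig1 on that side lie within their range on the other side, except the lowest Srebf2 value.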

How the data were processed

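Hippocampal RNA of 23 mice was sequenced (paired reads of 100 bp). The deposited values are FPKM to 2 decimals for 19733 genes, which the authors made by aligning reads to mm10 (Bowtie2) and estimating expression (RSEM). The submitters' processing notes name Bowtie2 2.2.5, RSEM 1.2.8 and HISAT2 2.1.0. The methods name poly(A)+ RNA and the sample annotations total RNA. FPKM are not counts, so a count test was not run.

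The 7 genes and all gene lists were chosen with earlier results of these data known. Columns were assigned to groups by name. Fold changes are on the scale of log2(FPKM + 0.1). One limma model (limma 3.58.1, R 4.3.3) of the 3 groups, with an intensity trend and no covariate, covered the 15985 genes that averaged 0.1 FPKM or more, with Benjamini-Hochberg adjustment over all of them. Exact two-sided permutation tests were added for single genes. Correlations used 100000 shuffles within groups, and the 2 mice left out again were those farthest from the median of the first measure. The length slope used the median length of a gene's protein-coding transcripts in the GENCODE mouse annotation for 12565 genes. The limma fit and the exact tests were checked on simulated data. The settings of the depth estimate were chosen while looking at the values.

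Genes outside the 7 were named by rule for differences. They came from the 2 genes with the smallest unadjusted p per pathway list and comparison, among genes that averaged 1 FPKM or more. Not every such gene was named. The 10 most alike genes were named too. Dhcr7 and the 5 enzymes that were higher in EtOH-UA mice were named after their values were seen. Single values of some listed genes are not reported here. Alternatives were other pseudocounts (1 and 0.01), filters and scalings, robust and weighted fits, fits to 2 groups and leaving out single mice. The fits without mice of high summed FPKM, with the length slope and without Zbtb20 were added after seeing the data.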

Additional observations from a re-analysis of the deposited data

Results flagged for a closer look

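Cyp46a1 was at 47.0 FPKM in 1 EtOH mouse, below the other 6 at 55.0 to 60.6 FPKM. The gap to the next mouse was 0.618 of the range of the group on the log2 scale, above Dixon's 95% critical value for 7 mice. It was the one such case among 21 sets of values (7 genes in 3 groups), and chance gives about 1 in 20 sets. The mouse had a summed FPKM of 330667 and the lowest Srebf2 level of its group, 34.5 FPKM.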

How the results depend on the processing

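No paired analysis was possible because the columns carry mouse numbers and no replicate numbers. The count of genes past the threshold, 0 in each comparison, was 1 between EtOH and Ctrl mice with array quality weights and with the length slope (Cd24a both times). Leaving out single mice gave 0 to 1 in each comparison. The gene was LOC115488002 without the Ctrl mouse with a sum of 358381 and, in both comparisons of EtOH-UA mice, LOC101055676 without the EtOH-UA mouse with a sum of 336178 or that with 333801. Over 735 alternative values of the 21 member differences, 0 passed (lowest adjusted p 0.574 in limma) and 43, on 8 differences, changed sign.

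Between EtOH and Ctrl mice these were Fdft1 (log2 fold change 0.0073 with upper-quartile scaling, 0.011 with quantile normalization, 0.035 with the length slope, 0.041 without the 6 mice with high sums, -0.041 to 0.019 leaving out single mice) and Cyp46a1 (0.026 without the 6 mice). Leaving out single mice gave -0.026 to 0.046 for Hmgcs1, -0.035 to 0.022 for Sqle and -0.0036 to 0.052 for Insig1. Between EtOH-UA and EtOH mice Cyp46a1 was at -0.0094 with upper-quartile scaling, -0.028 with quantile normalization, -0.037 with array quality weights, -0.036 with the length slope, -0.0092 without the 6 mice, -0.017 without the 2 EtOH-UA mice and -0.027 to 0.038 leaving out single mice. Between EtOH-UA and Ctrl mice Idi1 was at 0.0012 with the length slope and -0.061 to 0.067 leaving out single mice, and Cyp46a1 was at 0.016 without the 6 mice. The causes were not tested.

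Of the 21 pairs of members 1 passed with quantile normalization, against 4, and r changed sign for Hmgcs1 and Cyp46a1 (-0.0538), Fdft1 and Srebf2 (-0.0279) and Sqle and Srebf2 (-0.0940), and without the 6 mice for Hmgcs1 and Srebf2 (0.0692). Of the 70 pairs with marker scores 2 passed, and 0 without the 6 mice or without Zbtb20 (3 of the 7 pairs of that score passed when adjusted over 21 pairs, and on ranks only that with Sqle). Idi1, at 5.78 FPKM, had the widest intervals and the fewest fragments per kilobase of the 7 genes, about 95.6. Cyp46a1, at about 929 fragments per kilobase, had the next widest intervals. The part of depth in the width of the intervals was not tested.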
